A study of Mus musculus with 2 samples.

Results

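The 9 genes described here encode complement components, complement receptors and a complement regulator: C1qa, C1qb, C1qc, C3, Cfb, Cfp, C3ar1, C5ar1 and Cd55. They were taken by symbol, and all 9 were present among the 12638 genes of a single-cell RNA-seq matrix of 12458 mouse cells. The cells were CD45+ and enriched for dendritic cells (DC), from the subcutaneous MC38-OVAdim tumour (MC38 is a mouse colon adenocarcinoma line), the lymph node draining it (dLN) and a lymph node not draining it (ndLN) of 4 C57Bl6 mice. In 2 mice Havcr2, which encodes the inhibitory receptor TIM-3, was targeted (KO1 and KO2, 5854 cells), and the 2 controls carried floxed Havcr2 alleles (Havcr2fl/fl, named WT1 and WT2, 6604 cells). All 4 mice bore the tumour, and neither their age nor the Cre driver of the deletion is given in the sources used here. KO1 and WT1 shared one droplet channel, and KO2 and WT2 shared the other.

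Complement is a cascade of secreted proteins that tag cells and particles for uptake or lysis. C1q, built from the chains of C1qa, C1qb and C1qc, starts the classical pathway by binding antibody or other ligands. All pathways meet at the cleavage of C3, which factor B (Cfb) amplifies in the alternative pathway, with properdin (Cfp) stabilising the convertase. The fragments C3a and C5a act on the receptors encoded by C3ar1 and C5ar1, and CD55 (decay-accelerating factor) speeds the decay of the convertases on the cell's own surface. Macrophages and dendritic cells are a main known source of C1q, whereas most circulating C3 and factor B is made by hepatocytes.

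The C1q chain genes lie side by side on the minus strand of chromosome 4 (GRCm38, GENCODE annotation), C1qb at 136880129 to 136886187, C1qc at 136889804 to 136893065 and C1qa at 136895917 to 136898803. The cluster spans 18.675 kb, with gaps of 3.616 kb and 2.851 kb between neighbours. The other 6 members are also on minus strands: C3 at 57203970 to 57228136 and Cfb at 34856374 to 34862518 on chromosome 17, Cfp at 20925454 to 20931555 on chromosome X, C3ar1 at 122847138 to 122856161 on chromosome 6, C5ar1 at 16246743 to 16259540 on chromosome 7, and Cd55 at 130439027 to 130462744 on chromosome 1.

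RefSeq promoters (GRCm38.p6, 250 bases before to 50 after the start) were found for 7 members, not for C1qa or Cfb. The 3 shown, of C1qb, C1qc and C5ar1, are those of the 7 that matched the ETS core letters GGAAGT, and were chosen for that match. Cfp and C3ar1, which were also called higher in macrophages than in monocytes, had no match, and neither had C3 or Cd55. The capitals mark ACTTCC, which is GGAAGT read on the other strand.
C1qb, chr4:136886151-136886450, minus strand: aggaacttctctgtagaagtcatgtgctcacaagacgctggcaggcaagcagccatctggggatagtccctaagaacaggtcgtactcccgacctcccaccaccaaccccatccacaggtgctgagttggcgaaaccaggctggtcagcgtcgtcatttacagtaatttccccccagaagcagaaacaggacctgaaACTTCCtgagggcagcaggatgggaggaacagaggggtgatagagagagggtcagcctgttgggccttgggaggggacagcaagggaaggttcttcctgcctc
C1qc, chr4:136892865-136893164, minus strand: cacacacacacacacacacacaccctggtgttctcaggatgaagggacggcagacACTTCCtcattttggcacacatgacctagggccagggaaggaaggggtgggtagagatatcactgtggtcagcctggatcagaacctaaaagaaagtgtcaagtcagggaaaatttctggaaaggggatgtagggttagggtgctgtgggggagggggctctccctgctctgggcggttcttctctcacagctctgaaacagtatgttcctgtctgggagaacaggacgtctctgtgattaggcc
C5ar1, chr7:16259289-16259588, minus strand: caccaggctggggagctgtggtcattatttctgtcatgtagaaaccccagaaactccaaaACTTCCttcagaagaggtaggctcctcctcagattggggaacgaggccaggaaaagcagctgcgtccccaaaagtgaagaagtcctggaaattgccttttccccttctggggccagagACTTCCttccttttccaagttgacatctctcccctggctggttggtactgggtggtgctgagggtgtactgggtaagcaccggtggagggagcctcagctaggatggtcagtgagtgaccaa
In the C1qb promoter the match lay at bases -53 to -48 from the start site, in the C1qc promoter at -195 to -190, and in the C5ar1 promoter at -190 to -185 and at -72 to -67. GGAAGT was matched on either strand in 23.8% of 32851 promoters of the same length, so such a match is common. Of the other motifs searched on both strands, the C/EBP letters TTGCNNAA (10.8% of promoters) matched only in C3 among the 7, and the Maf half-site letters TGCTGAC (4.67%) only in Cd55. The GAS (interferon-gamma-activated site) letters TTCNNNGAA (8.30%) matched in none of the 7. None of these motifs overlapped another at a match.

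Each cell was assigned to a type from marker genes that included no complement gene. The gates held 2719 macrophages, 522 monocytes, 144 nonclassical monocytes, 385 cDC2, 351 cDC1, 863 mature DC, 337 pDC, 2474 B, 2130 CD8 T, 746 CD4 T and 172 NK cells, and 734 cells were left ungated. Apoe, a macrophage marker, was detected in 98.2% of gated macrophages and 19.8% of other cells, and Ly6c2 in 94.8% of gated monocytes and 25.9% of other cells. The 12 samples held 473 to 1691 cells and 3031124 to 28498154 UMIs, and the median cell held 15191 UMIs in tumours, 4520 in draining nodes and 4633 in non-draining nodes. Levels below are UMIs of a gene per 10000 UMIs, summed over the cells of one mouse. Havcr2 stood at 0.0581 and 0.0339 UMIs per 10000 in tumour macrophages of KO1 and KO2, against 0.688 and 0.579 in WT1 and WT2. In tumour monocytes it was at 0.959 and 0.709 in KO1 and KO2, against 1.15 and 1.62 in WT1 and WT2, so its transcript was low in KO macrophages but still present in KO monocytes. These values show RNA and not protein.

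**Figure D1:**
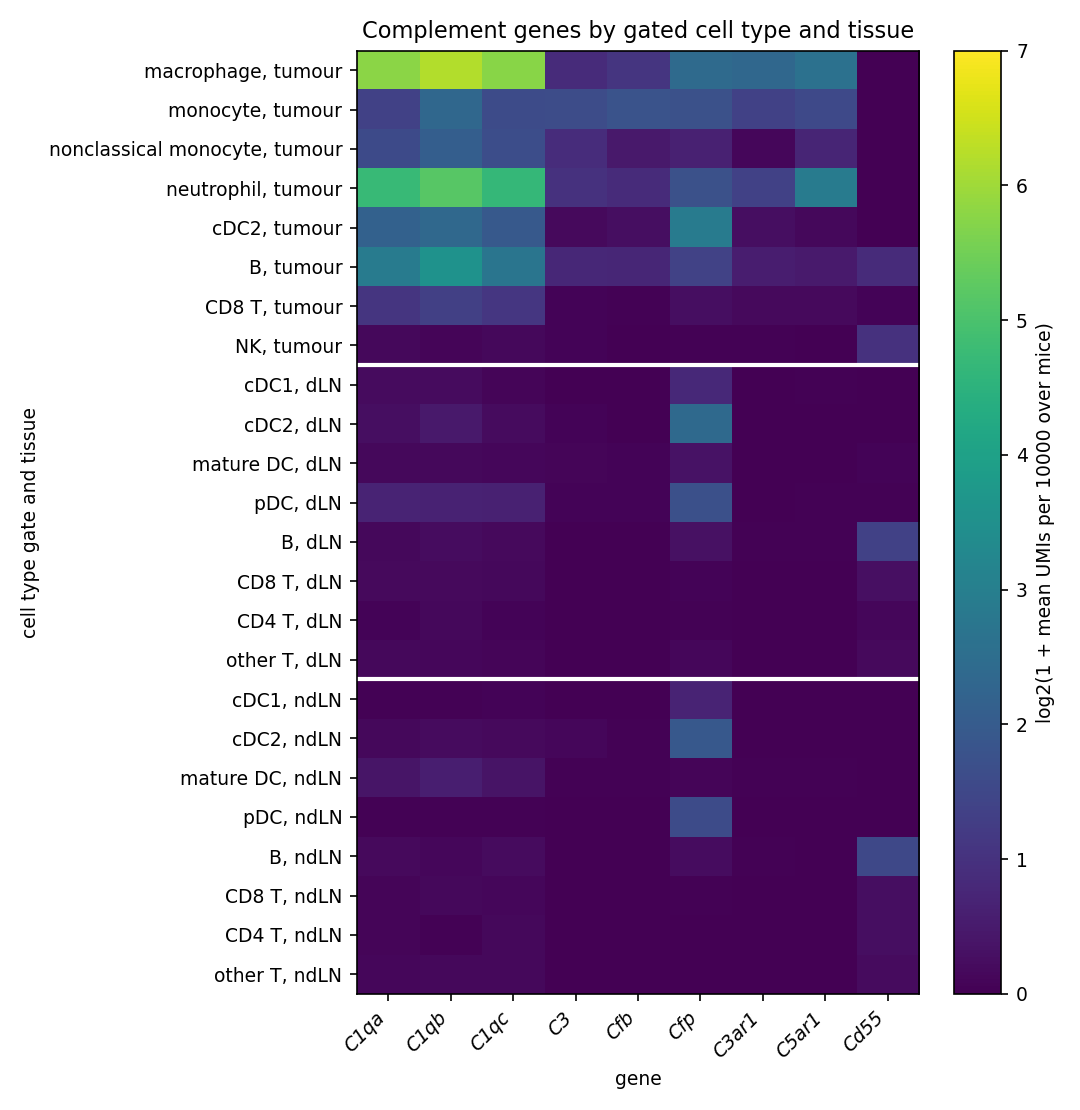
Mean level of each of the 9 genes in every cell type and tissue with at least 2 mice of 20 or more cells, coloured by log2(1 + mean UMIs per 10000 over mice); genes run across and gates run down. C1qa, C1qb and C1qc were highest in tumour macrophages (means of 54.1, 72.8 and 53.2 UMIs per 10000), Cfp in cDC2 and macrophages, and Cd55 in lymph node B cells.

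C1q transcripts were concentrated in the macrophage gate. C1qa reached 57.7 and 56.2 UMIs per 10000 in tumour macrophages of KO1 and KO2, and 57.2 and 45.3 in WT1 and WT2. C1qb reached 78.4 and 74.1 in KO1 and KO2, and 76.7 and 62.0 in WT1 and WT2. C1qc reached 57.4 and 55.5 in KO1 and KO2, and 55.6 and 44.4 in WT1 and WT2. For each chain WT2 was the lowest mouse and WT1 lay between KO2 and KO1, so the genotypes overlapped.

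Tumour monocytes carried far less C1q. C1qa was at 1.75, 0.586, 3.03 and 0.932 UMIs per 10000 in monocytes of KO1, KO2, WT1 and WT2, C1qb at 4.79, 2.47, 5.40 and 3.57, and C1qc at 2.51, 1.26, 2.58 and 1.67. Every macrophage value was above every monocyte value for each chain. On the scale of the mean over cells of log2(1 + UMIs per 10000), macrophages exceeded monocytes by 4.63 (SE 0.0913) for C1qa, 4.84 (SE 0.0874) for C1qb and 4.62 (SE 0.0951) for C1qc, with adjusted p of 7.93e-13, 3.79e-13 and 1.04e-12 by limma with mouse as a block. Of the 8 members that passed the filter of a UMI in 5% of the cells compared, 6 were called higher in macrophages, where 35.8% of 9501 genes were, and 1 was called lower, where 14.6% were. Their median difference was 1.30, against 0.02 over all genes tested; Cd55 did not pass the filter.

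Within tumours, gated macrophages held 97.2% and 99.0% of the C1qb UMIs of KO1 and KO2, and 95.2% and 95.3% of those of WT1 and WT2. They made up 66.9% and 68.5% of the KO tumour cells, and 53.1% and 56.4% of the WT tumour cells. Only 14 macrophages were gated in dLN and 11 in ndLN; their C1qa level was 33.3 (95% exact Poisson interval 30.2 to 36.5) and 51.9 (48.8 to 55.1) UMIs per 10000, pooled over mice. Such intervals cover counting error only. The dLN cells came from KO1, KO2 and WT1 (7, 6 and 1 cells) and the ndLN cells from WT1 and WT2 (6 and 5 cells). Node therefore cannot be told apart from mouse and genotype here. Lymph node CD8 T cells, which should lack the gene, stood at 0.110 in dLN and 0.0642 in ndLN, with a C1qa UMI in 4.23% and 3.65% of cells at medians of 5373.5 and 5313 UMIs.

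In the order of C1qa levels in tumour, the macrophage mean of 54.1 ± 5.92 (SD, n = 4 mice) was followed by neutrophils at 25.3 ± 2.30 (n = 2) and by B cells at 6.50 ± 3.44 (n = 2). From B cells downwards, the range of each type overlapped the next: cDC2 at 3.55, nonclassical monocytes at 1.98, monocytes at 1.57, CD8 T cells at 1.11 and NK cells at 0.117. The neutrophil value rested on few cells. Of 61 tumour neutrophils 47 had no C1q UMI, 5 had 50 or more C1q UMIs per 10000, and those 5 all carried UMIs of at least 4 macrophage markers; the top 10% of the neutrophils held 99.6% of their C1q UMIs. In CD8 T cells of the tumour 152 of 187 cells had no C1q UMI and the top 10% held 98.1%. Cells of this kind were not removed, and what part doublets or free RNA have in them was not tested.

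**Figure D2:**
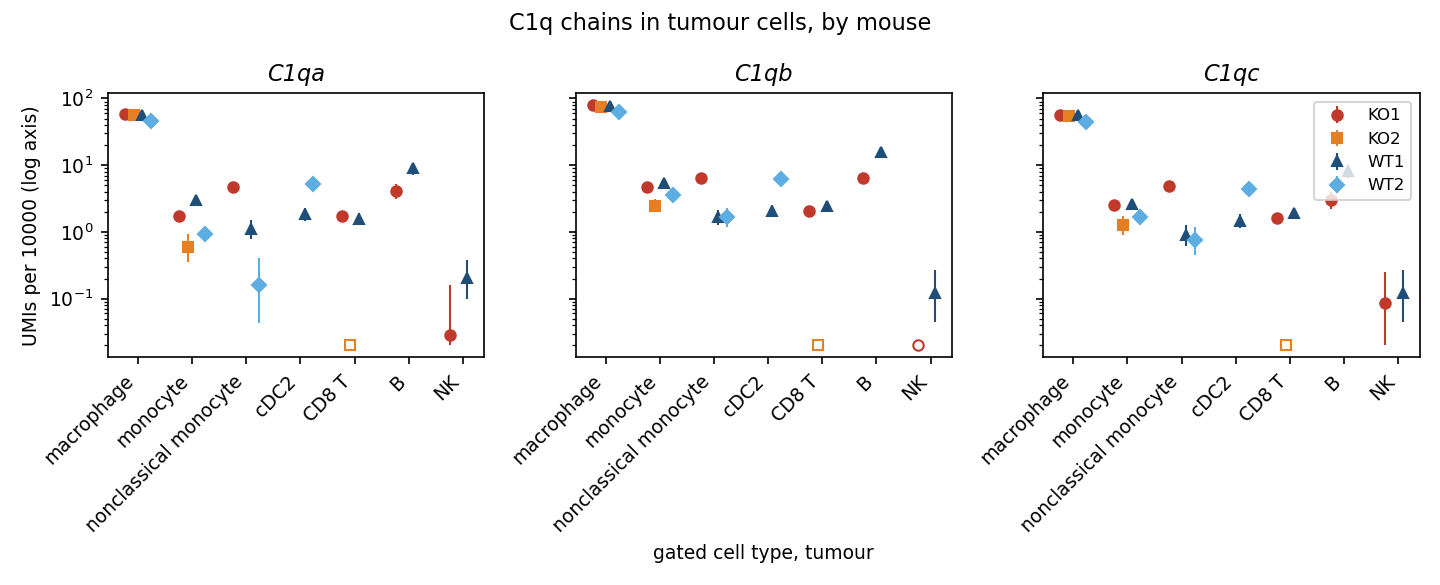
C1qa, C1qb and C1qc in 7 tumour gates, as UMIs per 10000 on a log axis; each symbol is a mouse with at least 20 cells in the gate, bars are exact Poisson 95% intervals, and open symbols at the bottom mark a count of 0. Macrophages of all 4 mice lie between 44.4 and 78.4, and monocytes between 0.586 and 5.40.

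Per cell, C1q was unevenly spread within the macrophage gate. The median sum of the 3 chains was 204 and 193 UMIs per 10000 in KO1 and KO2, and 194 and 149 in WT1 and WT2. All 3 chains were detected in 90.7% of the 2694 tumour macrophages, and 123 cells had no C1q UMI. Monocytes were different: their median was 0 in every mouse, 318 of 481 had no C1q UMI, and the top 10% of cells held 88.1% of the gate's C1q UMIs. The 7 macrophage markers summed to 20.4 and 15.1 UMIs per 10000 in the KO monocyte gates and 22.3 and 20.8 in the WT monocyte gates, against 84.8 to 103 in the macrophage gates.

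The 3 chains kept one proportion in macrophages. C1qa made up 30.0% of 1033077 C1q UMIs, C1qb 40.5% and C1qc 29.5%, and the C1qa share ran only from 29.8% to 30.3% over the 4 mice. Monocytes held a different mix, 22.0% C1qa (95% exact binomial interval 20.7 to 23.3), 52.4% C1qb and 25.6% C1qc of 3982 UMIs. Their C1qa share was 19.3% in KO1 and 13.6% in KO2, 27.5% in WT1 and 15.1% in WT2, below the macrophage share of the same mouse in each case. All 4 shares lay outside the pooled interval, which covers counting error and not the spread over mice. Cells gated as stromal or tumour cells, with a median of 53514.5 UMIs, held only 84 C1q UMIs, of which 22.6% (14.2 to 33.0) were C1qa. A UMI share depends on capture as well as on transcript number, so the proportions compare gates and not chains.

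Across tumour macrophages of one mouse, the chains followed each other closely. Pearson r between 2 chains, on log2(1 + UMIs per 10000), was 0.885 to 0.958 over the 4 mice (324 to 906 cells each), where the points share a library and each cell's depth. C3 and Cfb were related weakly (0.108 to 0.312), as were C3ar1 and C5ar1 (0.304 to 0.357), and C1qa and C3 hardly at all (-0.0491 to -0.0107). When the macrophages of each mouse were ordered by C1q sum and split into 3 groups of equal size, C3 was lower in the C1q-high than in the C1q-low group in all 4 mice: 0.766 against 1.23 in KO1, 0.672 against 1.03 in KO2, 0.572 against 0.824 in WT1 and 0.502 against 0.754 in WT2. The summed monocyte markers moved the same way, at 1.12, 1.46, 1.86 and 2.83 UMIs per 10000 in the C1q-high groups of KO1, KO2, WT1 and WT2, against 9.36, 7.15, 8.67 and 11.4 in the C1q-low groups. Median depth was 21043 to 23953 UMIs in the C1q-high groups and 13951 to 16471.5 in the C1q-low groups. The part of these markers and of depth in the C3 difference was not tested.

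C3, the central component, had its highest tumour level in monocytes. In macrophages C3 stood at 1.04 and 0.929 UMIs per 10000 in KO1 and KO2, and 0.637 and 0.594 in WT1 and WT2. In monocytes it stood at 2.15 and 2.22 in KO1 and KO2, and 1.87 and 2.05 in WT1 and WT2. Every macrophage value lay below every monocyte value. The difference was -0.68 (SE 0.0497) on the mean log2 scale, with an adjusted p of 2.56e-07 by limma. Thinned to 2000 UMIs a cell, 16.1% and 15.7% of KO macrophages and 11.4% and 10.1% of WT macrophages had a C3 UMI, against 31.2% and 34.1% of KO monocytes and 30.1% and 30.2% of WT monocytes. Unthinned, the shares were 42.6% to 56.3% in macrophages and 66.9% to 75.8% in monocytes.

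Macrophages nevertheless held most C3 UMIs of the tumour samples: 82.6% and 86.6% in KO1 and KO2, and 70.0% and 59.7% in WT1 and WT2. Monocytes held 9.03% and 9.88% in KO1 and KO2, and 19.0% and 28.5% in WT1 and WT2. Nonclassical monocytes had C3 at 1.27 UMIs per 10000 in KO1, and at 0.753 and 0.554 in WT1 and WT2. C3 was not detected in the 1040 CD8 T cells of dLN or the 903 of ndLN, which allows levels of up to 0.00485 and 0.00535 UMIs per 10000 at a count of 3.

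Cfb, the serine protease of the alternative-pathway convertase, gave a result that turned on the scale. Macrophages had 1.43 and 0.993 UMIs per 10000 in KO1 and KO2, and 1.21 and 0.798 in WT1 and WT2. Monocytes had 2.76 and 2.59 in KO1 and KO2, and 2.09 and 2.41 in WT1 and WT2, all above the macrophages. On the mean over cells of log2 values the difference was -0.16 (SE 0.0755) with an adjusted p of 0.0955 by limma, so no call was made. On the log of each mouse's mean level it was -0.64 with an adjusted p of 4.47e-05, where 19% of genes were called lower, and with a pseudocount of 0.1 the sign turned to 0.14 (adjusted p = 0.508). A Cfb UMI was found in 52.5% to 67.9% of macrophages at median depths of 20359 to 20813 UMIs, but in 33.7% to 54.5% of monocytes at 8701.5 to 10040 UMIs. At 2000 UMIs a cell the shares were 21.3% and 15.8% in KO macrophages and 19.3% and 13.1% in WT macrophages, against 22.2% and 30.6% in KO monocytes and 20.7% and 18.2% in WT monocytes.

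Cfp, which encodes properdin, was higher in macrophages than in monocytes. Its level was 4.20 and 4.97 UMIs per 10000 in macrophages of KO1 and KO2, and 3.98 and 4.43 in those of WT1 and WT2. In monocytes it was 2.26 and 2.65 in KO1 and KO2, and 1.92 and 2.48 in WT1 and WT2, with no overlap with the macrophages. The difference was 0.92 (SE 0.0627) on the mean log2 scale, adjusted p = 1.37e-07 by limma. Tumour cDC2 stood higher still, at 6.20 and 6.97 UMIs per 10000 in WT1 and WT2, above all 4 macrophage values; the KO tumours held 6 and 2 cDC2.

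The anaphylatoxin receptors were also macrophage genes among the mononuclear phagocytes. C3ar1 was at 4.46 and 3.87 UMIs per 10000 in macrophages of KO1 and KO2, and 4.12 and 3.60 in WT1 and WT2. In monocytes it was at 1.27 and 1.39 in KO1 and KO2, and 1.44 and 2.20 in WT1 and WT2. No monocyte value of C3ar1, the receptor for C3a, reached a macrophage value. C5ar1, the receptor for C5a, was at 5.11 and 4.95 in macrophages of KO1 and KO2, and 5.32 and 5.03 in WT1 and WT2. In monocytes C5ar1 was at 1.33 and 1.88 in KO1 and KO2, and 1.96 and 2.58 in WT1 and WT2. Neither receptor overlapped between the cell types, and macrophages exceeded monocytes by 1.25 (SE 0.0934) for C3ar1 and 1.35 (SE 0.0817) for C5ar1 on the mean log2 scale (adjusted p = 3.00e-07 and 4.31e-08 by limma). Nonclassical monocytes, which were close to macrophages for C3, had little C3ar1, at 0.205 in KO1 and 0.0279 and 0.0396 in WT1 and WT2.

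Tumour neutrophils also had a high C5ar1 level, but held a small share of its UMIs. That share was 0.630% and 0.458% in KO1 and KO2, and 0.585% and 0.951% in WT1 and WT2. Monocytes held 1.30% and 1.75% in KO1 and KO2, and 3.09% and 6.21% in WT1 and WT2. The 61 tumour neutrophils had 7.04 C5ar1 UMIs per 10000 pooled over mice (95% exact Poisson interval 6.12 to 8.06), and 73.8% of them had a UMI at a median of only 2172 UMIs. The values of 5.65 in WT1 and 7.36 in WT2 rested on 23 and 25 cells, both above all 4 macrophage values; the KO tumours held 7 and 6 neutrophils. In contrast with C1q, C5ar1 in this gate was spread over most cells. CD8 T cells of the lymph nodes had C5ar1 at 0.00969 UMIs per 10000 in dLN and 0.00892 in ndLN.

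**Figure D3:**
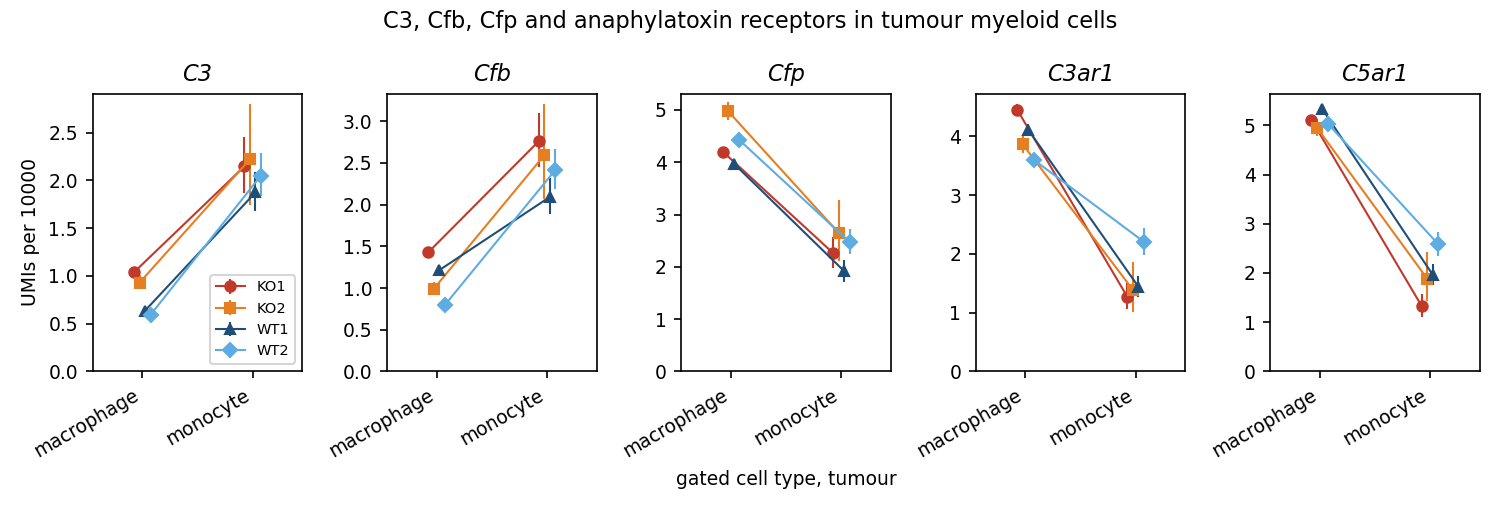
C3, Cfb, Cfp, C3ar1 and C5ar1 in tumour macrophages (left in each panel) and monocytes of the same 4 mice, as UMIs per 10000; lines join the values of a mouse and bars are exact Poisson 95% intervals. C3 and Cfb lie lower in macrophages of every mouse, and Cfp, C3ar1 and C5ar1 lie higher.

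Of 41 other complement genes listed, 17 were in the matrix and 11 passed the filter between macrophages and monocytes. Called higher in macrophages were 6: C1qbp, a mitochondrial protein first found as a C1q-binding protein (0.66), Itgax (0.37) of complement receptor 4, Cd93 (0.33), the membrane regulators Cr1l (0.13) and Cd59a (0.06), and C4b (0.07). Called lower were 2, among them Itgb2, the shared beta chain of complement receptors 3 and 4 (-0.42). Of all 9501 genes tested, 35.8% were called higher and 14.6% lower. The 11 pathway genes had a median difference of 0.07, against 0.02 over all genes tested.

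Over all cells of a sample, most members were higher in tumour than in dLN. Compared with the dLN of the same mice, 8 members were called higher in tumour, where 52.8% of 9034 genes were, and Cd55 was called lower, where 18.7% were. The differences of log2 means were 3.23 for C1qa, 3.66 for C1qb, 3.33 for C1qc, 0.56 for C3, 0.63 for Cfb, 1.37 for Cfp, 1.42 for C3ar1 and 1.63 for C5ar1, and -0.37 for Cd55 (adjusted p from 1.57e-06 to 0.00119 by limma). The member median was 1.42, against 0.04 over all genes tested. Cell make-up and expression per cell cannot be told apart in this comparison. Of the 9 other pathway genes tested, 6 were called higher, among them Itgb2 (1.43), Itgam (0.70), Itgax (0.59), Cd93 (0.41) and C1ra (0.09), and 1 was called lower, Cr2, the complement receptor of B cells (-0.25).

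In lymph nodes Cfp separated the dendritic cell subsets. In dLN it stood at 0.141, 0.850 and 0.0949 UMIs per 10000 in mature DC of KO1, KO2 and WT1, against 3.72, 3.88 and 5.01 in cDC2 of the same mice. In ndLN it stood at 0.130 and 0 in mature DC of KO1 and KO2, and 0.0395 and 0.110 in WT1 and WT2, against 2.63 and 2.65 in cDC2 of KO1 and KO2 and 2.74 and 3.28 in WT1 and WT2. No mature DC value reached a cDC2 value. Cfp was lower in mature DC by limma in dLN (-1.55, SE 0.109, adjusted p = 3.91e-12) and in ndLN (-1.13, SE 0.0881, adjusted p = 2.76e-29). It was the single member called of 4 and 3 tested; 26.5% and 27.8% of all genes were called lower. The C1q chains tested there differed by -0.03 to 0.03, with adjusted p from 0.490 to 0.920.

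Cfp was also lower in cDC1 than in cDC2. Cfp was at 0.765, 0.625 and 0.872 UMIs per 10000 in dLN cDC1 of KO1, KO2 and WT1, and at 0.891, 0.466 and 0.466 in ndLN cDC1 of KO2, WT1 and WT2. All of these were below the cDC2 of the same node. The difference from cDC2 was -1.15 (SE 0.0853, adjusted p = 1.85e-08 by limma) in dLN, where 10.2% of genes were called lower, and -0.72 (SE 0.0964, adjusted p = 4.18e-06) in ndLN, where 7.4% were. The WT2 dLN was left out of the dLN contrasts because it held 15 cDC2, whose pooled Cfp level was 2.80. Among lymph node types with 20 or more cells in at least 2 mice, plasmacytoid DC ranked second for Cfp. In dLN they stood at 2.58 and 3.21 in KO1 and KO2, and 1.46 and 1.90 in WT1 and WT2. All these values were below the cDC2 of KO1, KO2 and WT1, but 3.21 was above the 15 WT2 cDC2 at 2.80. Lymph node monocytes and macrophages had fewer than 20 cells per mouse and were not ranked. Over all mice, ndLN monocytes were 0.174% to 0.818% of cells and held 1.11% to 15.4% of Cfp UMIs. The ndLN macrophages, gated only in WT1 and WT2, were 0.797% and 0.520% of cells and held 20.9% and 7.11%. Lymph node CD8 T cells had Cfp at 0.0404 in dLN and 0.0303 in ndLN.

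Other pathway genes split the same subsets. Clu, which encodes the soluble regulator clusterin, was called higher in mature DC than in cDC2, by 1.21 in dLN and 1.60 in ndLN. Its level in dLN mature DC was 4.14 and 5.53 UMIs per 10000 in KO1 and KO2, and 6.50 and 7.87 in WT1 and WT2, against 0 in dLN cDC2 of all 4 mice. Itgb2 (-1.18 and -0.85), Itgax (-1.03 and -0.71) and C1qbp (-0.61 and -0.43) were called lower in mature DC in dLN and ndLN, and Cr1l was called higher in ndLN alone (0.21). Of all genes, 26.5% in dLN and 27.8% in ndLN were called lower in mature DC. Between cDC1 and cDC2, C1qbp was the 1 gene called higher in cDC1 (0.32 in dLN, 0.51 in ndLN). Called lower were 3 in dLN, among them Itgax (-0.50) and Itgam (-0.11), where 10.2% of all genes were.

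Cd55 was the lymphocyte gene of the set. In dLN B cells it stood at 1.71 and 1.90 UMIs per 10000 in KO1 and KO2, and 1.21 and 1.42 in WT1 and WT2. In dLN CD8 T cells it stood at 0.288 and 0.272 in KO1 and KO2, and 0.178 and 0.177 in WT1 and WT2. B cells of every mouse lay above CD8 T cells of every mouse, and the same held in ndLN, where B cells had 2.42 and 2.00 in KO1 and KO2 and 1.68 and 1.40 in WT1 and WT2, against CD8 T cells at 0.158 and 0.189 in KO1 and KO2 and 0.244 and 0.189 in WT1 and WT2. B cells exceeded CD8 T cells by 0.79 (SE 0.0382, adjusted p = 1.48e-23 by limma) in dLN and 0.89 (SE 0.0496, adjusted p = 1.05e-19) in ndLN on the mean log2 scale. Cd55 was the 1 member tested, and 20.3% and 17.2% of all genes were called higher. B cells held 78.5% and 90.4% of the Cd55 UMIs of the dLN of KO1 and KO2, and 69.4% and 74.9% of those of WT1 and WT2. The gene was nearly absent from tumour macrophages, at 0.00858 ± 0.00289 (SD, n = 4).

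CD4 T cells carried less Cd55 than CD8 T cells in dLN but not detectably so in ndLN. In dLN CD4 T cells it was at 0.050 and 0.0766 UMIs per 10000 in KO1 and KO2, and 0.165 and 0.0774 in WT1 and WT2, below all 4 CD8 T values. The difference was -0.12 (SE 0.0279, adjusted p = 0.00197 by limma) in dLN, where 5.09% of genes were called lower, and -0.01 (SE 0.0370, adjusted p = 0.928) in ndLN, where 3.92% were; the difference between the nodes was not tested. The dLN values rest on 2 to 10 Cd55 UMIs per mouse in CD4 T cells. Without the filter on low genes the dLN call was lost (adjusted p = 0.0667). C1qb, the other member tested in dLN, differed by -0.00 (adjusted p = 0.967).

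Tumour CD8 T cells had less Cd55 than those of the dLN. It was at 0.0417, 0.0531 and 0.0415 UMIs per 10000 in tumour CD8 T cells of KO1, KO2 and WT1, against 0.288, 0.272 and 0.178 in dLN CD8 T cells of the same mice. The groups did not overlap, and the difference was -0.16 (SE 0.0360, adjusted p = 0.00174 by limma), where 6.38% of 7270 genes were called lower. The tumour values rest on 1 to 3 Cd55 UMIs per mouse. C1qa, C1qb and C1qc differed by 0.04, 0.05 and 0.04 between the same cells (adjusted p = 0.344, 0.354 and 0.410). On the log of the mean they were called higher in tumour CD8 T cells, by 0.33 to 0.42, where 20.2% of genes were; as given above, few of these cells held nearly all of their C1q UMIs. Tumour NK cells had Cd55 at 0.925 UMIs per 10000 (103 cells, 95% exact Poisson interval 0.741 to 1.14), against 0.327 (0.141 to 0.644) in 32 dLN NK cells, pooled over mice. The tumour value rests on 36, 2, 47 and 2 Cd55 UMIs in KO1, KO2, WT1 and WT2, and the dLN value on 1, 2, 4 and 1. Pooling weights the mice unequally, the intervals cover counting error only, and the difference was not tested.

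Among other pathway genes, Cr2 was called higher in B than in CD8 T cells (0.85 in dLN, 0.84 in ndLN), and Itgb2 (-0.62 and -0.71) and C1qbp (-0.34 and -0.44) were called lower. Of all genes, 20.3% in dLN and 17.2% in ndLN were called higher in B cells. In CD4 against CD8 T cells Itgb2 was higher (0.47 in dLN, 0.23 in ndLN) and C1qbp lower (-0.27 and -0.20). There 5.09% of all genes in dLN and 3.92% in ndLN were called lower. In tumour against dLN CD8 T cells Itgb2 was higher (1.15) and C1qbp lower (-0.20), where 6.38% of all genes were called lower.

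**Figure D4:**
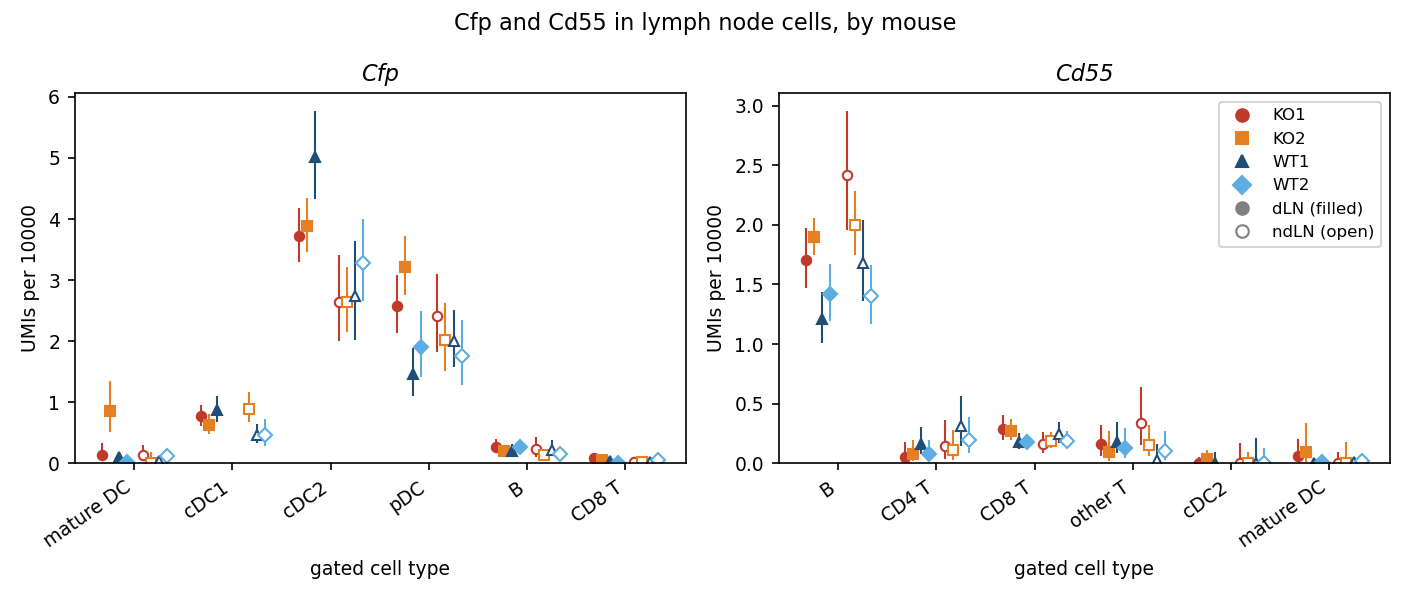
Cfp and Cd55 in lymph node gates, as UMIs per 10000; each symbol is a mouse, filled for dLN and open for ndLN. Only mice with 20 or more cells in a gate are drawn, and monocytes and macrophages are not drawn. Among the gates drawn, Cfp is highest in cDC2 (2.63 to 5.01) and then pDC, and Cd55 in B cells (1.21 to 2.42). Mature DC lie below cDC2 for Cfp and below B cells for Cd55.

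No member was called between the draining and the non-draining node. Over 7 cell types and 14 member tests, limma called 0, and 2 tests had an unadjusted p under 0.05, as 5.16% to 9.09% of all genes did in each comparison. The share of all genes called was 0% in B, CD4 T and mature DC, 0.0147% in CD8 T, 0.143% in cDC2, 0.337% in other T cells and 0.0612% in pDC. The lowest adjusted p, 0.0984, was that of Cfp in cDC2, at 3.72, 3.88 and 5.01 UMIs per 10000 in dLN of KO1, KO2 and WT1, against 2.63, 2.65 and 2.74 in ndLN of the same mice. These values did not overlap, as for 11.3% of 8401 genes that were higher in dLN of these 3 mice. WT2 was left out for its 15 dLN cDC2 and went the other way, at 2.80 in dLN against 3.28 in ndLN. The difference was 0.53 (SE 0.131) on the mean log2 scale. None of the 9 tests of whether the KO effect differed between the nodes was called by limma (lowest adjusted p = 0.889), and 1 had an unadjusted p under 0.05. Those tests did not have the mouse as a block, although both nodes came from the same mice.

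No member passed the threshold between KO and WT mice in the main fit, which had no channel block. In 15 comparisons of a cell type in a tissue, 37 member tests gave 0 calls by limma, with differences from -0.23 to 0.34 and a lowest adjusted p of 0.243. Of all genes, 0.0311% were called in tumour macrophages and 0% in tumour monocytes. In dLN 0.0165% were called in B, 0% in CD4 T, 0.0294% in CD8 T, 0.386% in mature DC, 0.0151% in other T cells and 0% in pDC. In ndLN 0.117% were called in cDC2, 0.0122% in pDC and 0% in the other types. An unadjusted p under 0.05 was reached in 9 tests, where 2.49% to 10% of all genes reached it in each comparison. Both KO mice lay above both WT mice in 8 tests, where 11.6% to 19.9% of all genes did, and below in 1, where 13.4% to 24.9% did. With 2 mice per genotype the p-values rest on few animals, and a p over the threshold does not show that the levels were alike. In a fit with the droplet channel as a block, C3 and Cfb were called in tumour macrophages, as given next.

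C3 in tumour macrophages was the member nearest to a call. Both KO mice (1.04 and 0.929 UMIs per 10000) lay above both WT mice (0.637 and 0.594), a pattern that 16.1% of 9643 genes shared. The difference was 0.22 (SE 0.0343) on the mean log2 scale, with an unadjusted p of 2.19e-04 and an adjusted p of 0.243 by limma. With the droplet channel as a block the adjusted p was 4.81e-05, and Cfb was also called (0.11, adjusted p = 0.0360), in a fit that called 4.55% of all genes. Without WT1 the adjusted p was 2.51e-04 for C3 and 0.00262 for Cfb, and 2.64% of genes were called higher. KO levels of C3 were above WT levels in both the C1q-high and the C1q-low group of macrophages. The summed monocyte markers of the macrophage gate were at 4.11 and 3.71 UMIs per 10000 in KO1 and KO2, and 4.43 and 5.66 in WT1 and WT2. The part of these markers and of the C1q level in the C3 difference between genotypes was not tested.

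The other macrophage members overlapped between genotypes. The differences were 0.22 for C1qa, 0.17 for C1qb, 0.23 for C1qc, 0.11 for Cfb, 0.15 for Cfp, 0.10 for C3ar1 and 0.09 for C5ar1 (adjusted p from 0.820 to 0.903 by limma). The Cfb value depended on the mouse: without KO1 it was -0.00, and without WT2 it was -0.01. The members had a median of 0.16 and all genes one of -0.00. In monocytes Cfb was at 2.76 and 2.59 UMIs per 10000 in KO1 and KO2, above 2.09 and 2.41 in WT1 and WT2, with a difference of 0.27 (SE 0.114, adjusted p = 0.995); 14% of 7845 genes had both KO mice above both WT mice and none was called. Without KO1 that Cfb difference was 0.44 with an adjusted p of 0.0286, where 2.29% of genes were called higher. C3 (0.09) was also higher in both KO mice, and none was called of C3ar1 (-0.23), C5ar1 (-0.14), Cfp (0.05), C1qa (-0.08), C1qb (-0.01) and C1qc (-0.04), which overlapped.

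**Figure D5:**
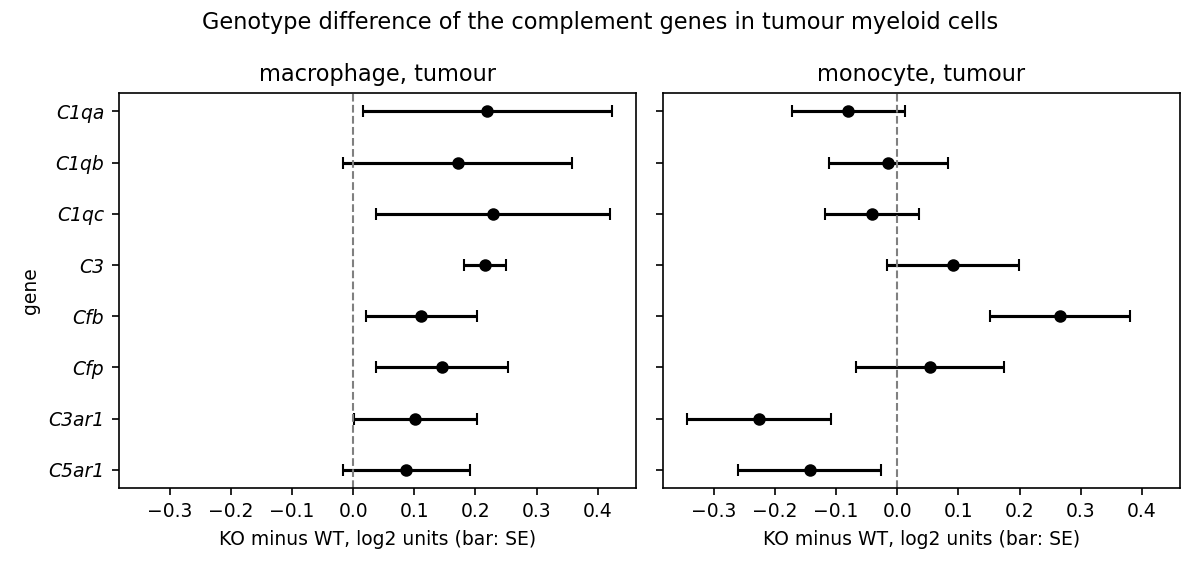
KO minus WT difference in mean log2(1 + UMIs per 10000) with its standard error, for 8 genes in tumour macrophages (left) and monocytes. C3 in macrophages, at 0.22, has the smallest error of the macrophage values. No point passed the threshold on its adjusted p in the main fit, which had no channel block.

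In lymph nodes 21 member tests in 13 comparisons gave differences from -0.11 to 0.34 and a lowest adjusted p of 0.519 by limma. Both KO mice lay above both WT mice for Cd55 in B cells of dLN (0.19, adjusted p = 0.999) and of ndLN (0.24, adjusted p = 0.519), as 16.9% and 11.6% of all genes did there. The same held for Cfp in dLN pDC (0.34, adjusted p = 1.00), as for 16.4% of genes. Cd55 in dLN CD8 T cells (0.07, with 18.5% of genes) and in other T cells of ndLN (0.11, with 15% of genes) also lay higher in both KO mice. Cd55 in ndLN CD4 T cells (-0.11) lay lower in both, as 13.4% of genes did. Of 71 tests of the other pathway genes between genotypes, 1 was called, Itgb2 in dLN mature DC (0.30, adjusted p = 0.0317), where 0.386% of genes were called.

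Over 88 profiles of a cell type in a tissue of a mouse, from 29 such types, the gene most like the mean of the C1q chains was Ms4a7 (Pearson r 0.987), itself a marker of the macrophage gate, followed by Olfml3 (0.984), Tmem119 (0.982), Ccl12 (0.979) and Cxcl14 (0.977). C3ar1 was most like Stab1 (0.982), Arg1 (0.971) and Trem2 (0.962), and C5ar1 most like Clec4n (0.936), Hmox1 (0.905) and Lilr4b (0.904). C3 was most like Tlr2 (0.956), Ifi204 (0.949) and Mgst1 (0.942), and Cfb most like Ms4a6d (0.959), Hk3 (0.947) and Fcgr1 (0.945). Cfp had the least close neighbours, Gsn (0.896), Itgax (0.837) and Atp6ap2 (0.834), and Cd55 was most like Fcmr (0.948), Scd1 (0.944) and Bank1 (0.943). Profiles of a mouse share its libraries, and 2827 genes were compared; Trem2 and Fcgr1 are also gate markers.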

How the data were processed

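Single-cell 5′ RNA-seq of 12 samples (3 tissues of 4 mice) was used. Per the labels' protocols, tissues were digested with Liberase and DNase, tumour cells were enriched on Percoll, and CD45 oligo tags marked mouse and tissue in 2 droplet channels. Cell Ranger 3.0.2 and mm10 were named, per the submitters' processing notes; for tag assignment and filters nothing is given in the sources used here. As deposited, each value was the natural log of 1 plus a gene's UMIs per 10000 UMIs of that cell, and each cell carried its mouse and tissue. All of the back-transformed values (100%) were whole UMIs within 0.01, cells held 687 to 131217 UMIs, and 706 cells had 5% or more mitochondrial UMIs; no cell was removed and no doublet caller was run. The channels shared 65 cell barcodes.

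Cells were gated by the highest mean over the markers of a type, each scaled to its 99.5th percentile, with at least 2 markers detected and a margin of 0.05 over the next type. The mean of log2(1 + UMIs per 10000) over the cells of each mouse was tested two-sided with limma 3.58.1 (trend) in R 4.3.3, in samples of 20 or more cells and on genes with a UMI in at least 5% of the cells compared. P-values were adjusted by Benjamini-Hochberg over all genes of a comparison, with a threshold of 0.05. Comparisons of cell types or tissues had the mouse as a block and at most 4 mice. Their very small p-values rest on a spread that limma shares over all genes, not on these few mice alone. The KO minus WT tests, and the tests of that difference between nodes, used genotype-by-tissue group means without the mouse as a block. Tissues of the same mouse entered those fits as separate profiles. The shared channel pairs KO1 with WT1 and KO2 with WT2; the differences between channels in KO and in WT correlated over genes with r from -0.0984 to 0.653 over 15 cell types in a tissue (over 0.1 in 8, and 0.653 in tumour macrophages). The fit was also run on simulated cells with known changes and no channel effect, which does not test the KO results above. Members were tested wherever they passed the filter, and given as values or as ranges and counts; other genes are those of a list of 41 complement genes and the 5 (C1q chains) or 3 (other members) genes with the highest r. Values of 1 gene of that list are not reported here. The members, lists and tests were chosen with earlier results of these data known. Python 3.11.15, numpy 2.4.6, scipy 1.17.1, pandas 2.3.3 and matplotlib 3.10.9 were used otherwise. Alternatives were no filter, the log of the mean, a pseudocount of 0.1, limma-voom on summed UMIs, a gate margin of 0.15, 50 cells per sample, the block and leaving out each mouse.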

Additional observations from a re-analysis of the deposited data

How the results depend on the processing

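Of 346 recomputed counts of members called, 334 were within 1.5 times the reported count, and of 332 recomputed single differences 319 kept their direction and side of the threshold. The replicate block changed the KO minus WT result in macrophages, from 0 members called to 2 (C3 and Cfb), as all genes called went from 3 to 439; it changed no other call. Leaving out 1 mouse also moved the KO minus WT counts in macrophages and monocytes, but those fits had 1 mouse in a genotype. For cDC1 minus cDC2 in dLN it gave 1 to 3 members (3 without KO1, adding C1qa and C1qb). For macrophage minus monocyte it gave 7 to 8, which adds Cfb at -0.23 without KO1 and -0.21 without WT1. The macrophage Cfb difference between KO and WT ran from -0.0115 without WT2, over -0.00 without KO1, to 0.235 without WT1, and the macrophage minus monocyte Cfb difference to 0.14 with a pseudocount of 0.1. Without the filter on low genes, the count was 3 for B minus CD8 T in dLN, 2 in ndLN, 2 for cDC1 minus cDC2 in ndLN and 0 for CD4 T minus CD8 T in dLN. Limma-voom gave 2 for cDC1 minus cDC2 and 2 for mature DC minus cDC2 in ndLN, and 4 for tumour minus dLN CD8 T cells, where the log of the mean also gave 4. The causes were not tested. Depth limits the lymph node values: at 4520 to 4633 UMIs per cell, Cd55 in T cells rests on few UMIs per mouse, and 2 mice per genotype limit every KO comparison.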
